A study of Homo sapiens with 12 samples.

Results

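The 10 genes described here are the E2F transcription factors E2F1 to E2F8, their dimerization partner TFDP1 and the retinoblastoma gene RB1. They were taken by symbol from the deposited gene count table, which held 19225 entries, and each symbol was found. RNA was sequenced from HN6 and HN30, a pair of established oral squamous cell carcinoma (OSCC) cell lines, each transfected for 24 h with a scrambled siRNA (NC), with siFAT1-1 or with siFAT1-2, the last 2 being siRNAs against FAT1, an atypical cadherin of the cell surface. Each of the 6 conditions had biological repeats labelled time1 and time2, which gave 2 libraries per condition and 12 in all. Transfection left part of the FAT1 transcript in place, so the model is a partial and transient knockdown (KD), and no protein was measured in these libraries.

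E2F proteins bind the promoters of genes needed for DNA replication and for passage from G1 into S phase, most of them as dimers with TFDP1 or a relative of it. E2F1, E2F2 and E2F3 are grouped as activators, and E2F4 to E2F8 as repressors: E2F4 and E2F5 work with the pocket proteins of the RB family, E2F6 with a Polycomb-type complex, and E2F7 and E2F8 without a dimerization partner of the TFDP kind. RB1 encodes the pocket protein that holds activator E2Fs inactive until cyclin-dependent kinases phosphorylate it. E2F1 and E2F2, like E2F7 and E2F8, are themselves transcribed in a cell-cycle-dependent manner and are known targets of E2F.

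To show the E2F words in the members' own promoters, RefSeq start windows on GRCh38.p14 were searched on both strands, over the 250 bases before the start, for the 4 E2F words TTTCCCGC, TTTCGCGC, TTTGCCGC and TTTGGCGC, of which TTTGCCGC and TTTGGCGC are the ones E2F1 carries. Of the 27305 windows, 2.79% held at least 1 of the words. Windows that began at the GENCODE start or within 32 bases of it were at hand for 7 members (E2F1, E2F2, E2F3, E2F4, E2F6, E2F7 and TFDP1), and 4 of these held a match. The 30 bases around each match are printed 5′ to 3′ in the direction of the gene, with the matching letters in capitals, since they separate all 3 activators from E2F4, E2F6 and E2F7, whose windows held none of the words. They lie at chr20:33686394-33686423 (minus strand) for E2F1, chr1:23531257-23531286 (minus) for E2F2, chr6:20401815-20401844 (plus) for E2F3 and chr13:113584622-113584651 (plus) for TFDP1.
E2F1: ctttcGCGGCAAAaaggaTTTGGCGCgtaa
E2F2: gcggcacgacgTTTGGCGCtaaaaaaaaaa
E2F3: ttgaaaagccgGCGGGAAAtccgagtttcg
TFDP1: gggcgccgaagGCGCGAAAaggcgcgcagg
E2F1 held 2 matches in opposite orientation, ending 26 and 13 bases before its start, and the other genes held 1 each. The window listed for RB1 began inside the gene, away from its GENCODE start, and was not read. A match is a description of the letters and not evidence of binding.

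Total counts ran from 26430049 to 47639010 per library. FAT1 was lower in all 4 KD libraries of each line than in both NC libraries, at 7.61 to 21.4 against 56.8 and 66.7 CPM (library-scaled counts) in HN6 and at 4.86 to 10.8 against 13.6 and 14.7 CPM in HN30, and it fell by 1.59 ± 0.31 on the log2 scale over both lines (SE, adjusted p = 0.0404 in the edgeR fit). That call was lost with the repeat number as a block (adjusted p = 0.0757) and in 11 of the 12 refits with 1 library left out, all but the one without HN30 siFAT1-2 repeat 1 (adjusted p up to 0.124). Over both lines each siRNA taken alone also lowered FAT1 (adjusted p = 0.00656 for siFAT1-1 and 0.0236 for siFAT1-2 with edgeR). The siFAT1-2 call was lost without HN6 siFAT1-2 repeat 1 (0.0720). Within HN6 the log2 fold change was -2.55 for siFAT1-1 (adjusted p = 0.0499 with edgeR) and -1.84 for siFAT1-2 (0.0561). Within HN30 it was -1.35 (0.0946) and -0.61 (0.422), neither of which passed. There the siFAT1-1 fall passed with the DESeq2 Wald test. FAT1 thus fell less in HN30, the line with the larger falls of E2F1, E2F2 and E2F8. The difference between the lines did not pass for either siRNA. The epithelial markers KRT5, TP63, CDH1, EPCAM and DSP were present in every library, KRT14 reached 2.42 CPM at most, and the leukocyte gene PTPRC and the endothelial gene KDR stayed under 0.1 CPM, but CSF1R (6.32 to 31.6 CPM), CD14 (2.08 to 14.995) and COL1A1 (11.1 to 146) were present in every library and the endothelial CDH5 reached 6.53 CPM. The second NC library of HN6 stood apart: with genes split into 5 equal groups by exon GC content, the lowest group lay at a median of -0.85 log2 units from the HN6 mean there, against -0.15 to 0.53 in the other 5 HN6 libraries and -0.12 to 0.11 in HN30. RB1, with 37.1% GC, and E2F5, with 38.3%, belonged to that group, whereas E2F1 (61.6%) and E2F4 (59.3%) belonged to the highest. The GC trend also differed by siRNA. The lowest minus the highest group was 0.58 and 0.88 for siFAT1-2 in HN6 and 0.22 and 0.22 in HN30, the highest values of each line. For siFAT1-1 it was negative in every library (-0.38 and -0.02 in HN6, -0.20 and -0.18 in HN30). For NC it was 0.08 and -1.12 in HN6 and -0.20 and 0.13 in HN30, so that NC also held negative values in each line. Where leaving out HN6 NC repeat 2 changed a call or a direction of a member, the value without it is given beside the result.

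The abundance of the members differed widely within a line. Per kilobase of exon, TFDP1 was the most abundant member by median, at 68.1 CPM per kb in HN6 (range 37.2 to 78.7, n = 6) and 38.2 in HN30 (33.7 to 48.6). E2F4, the main repressor of quiescent cells, followed with medians of 45.3 in HN6 (41.3 to 66.2) and 34.4 in HN30 (30.8 to 38.7), and its range overlapped that of TFDP1 in both lines. In HN6 the next were E2F7 at 17.0 (10.1 to 20.2) and E2F1 at 14.3 CPM per kb (6.56 to 30.5), again with overlapping ranges. E2F3 (9.29), E2F6 (6.52) and RB1 (6.19) formed the middle of the order in HN6, and E2F8 (2.41), E2F2 (1.37) and E2F5 (0.521) its end.

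**Figure D1:**
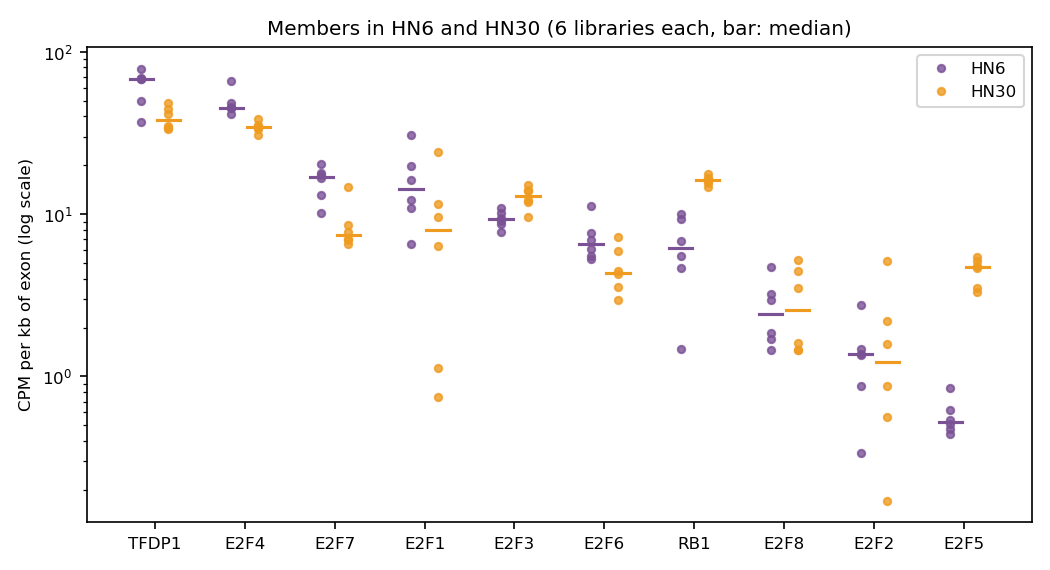
Level of each member in CPM per kilobase of exon (log scale) in the 6 HN6 and the 6 HN30 libraries, with 1 point per library and a bar at the median. RB1 and E2F5 lay higher in all 6 HN30 than in all 6 HN6 libraries and E2F4 lay lower, and E2F1 and E2F2 spread the most within HN30.

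Over its NC and KD libraries together, HN30 kept TFDP1 and E2F4 at the top but placed RB1 (16.2 CPM per kb, range 14.6 to 17.7) and E2F3 (12.98, range 9.53 to 15.1) next, above E2F1 (8.01) and E2F7 (7.39). The ranges of RB1 and E2F3 overlapped. E2F1 spread from 0.751 to 24.3 CPM per kb over the HN30 libraries, with both siFAT1-1 libraries at the low end. E2F5 at 4.69, E2F6 at 4.35, E2F8 at 2.56 and E2F2 at 1.23 closed the order in HN30. In the NC libraries of HN30 alone E2F1 came to a mean of 17.9 ± 8.98 CPM per kb (SD, n = 2), beside 16.2 for RB1, 11.8 for E2F3, 11.2 for E2F7, 3.66 for E2F2 and 3.41 for E2F5.

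The comparison of KD with NC asks whether FAT1 knockdown shifts these regulators. In the comparison over both lines none of the 10 members passed edgeR's quasi-likelihood test after Benjamini-Hochberg adjustment (adjusted p under 0.05), where 0.547% of all 13887 genes tested passed. None passed the DESeq2 Wald test, where 640 of 13592 genes did. E2F1, E2F2 and E2F7 had an unadjusted P under 0.05, as did 14.5% of all genes. At the looser limits of P under 0.05 with an absolute log2 fold change over 1, E2F1 and E2F2 were counted, against 3.07% of all genes, but only E2F1 without HN6 NC repeat 2 and no member without HN30 NC repeat 1. The median difference of the 10 members was -0.19 log2 units, and that of all genes 0.02. The clearest movement was seen in HN30 with siFAT1-1, where E2F1 fell to 5.23% of its NC mean.

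**Figure D2:**
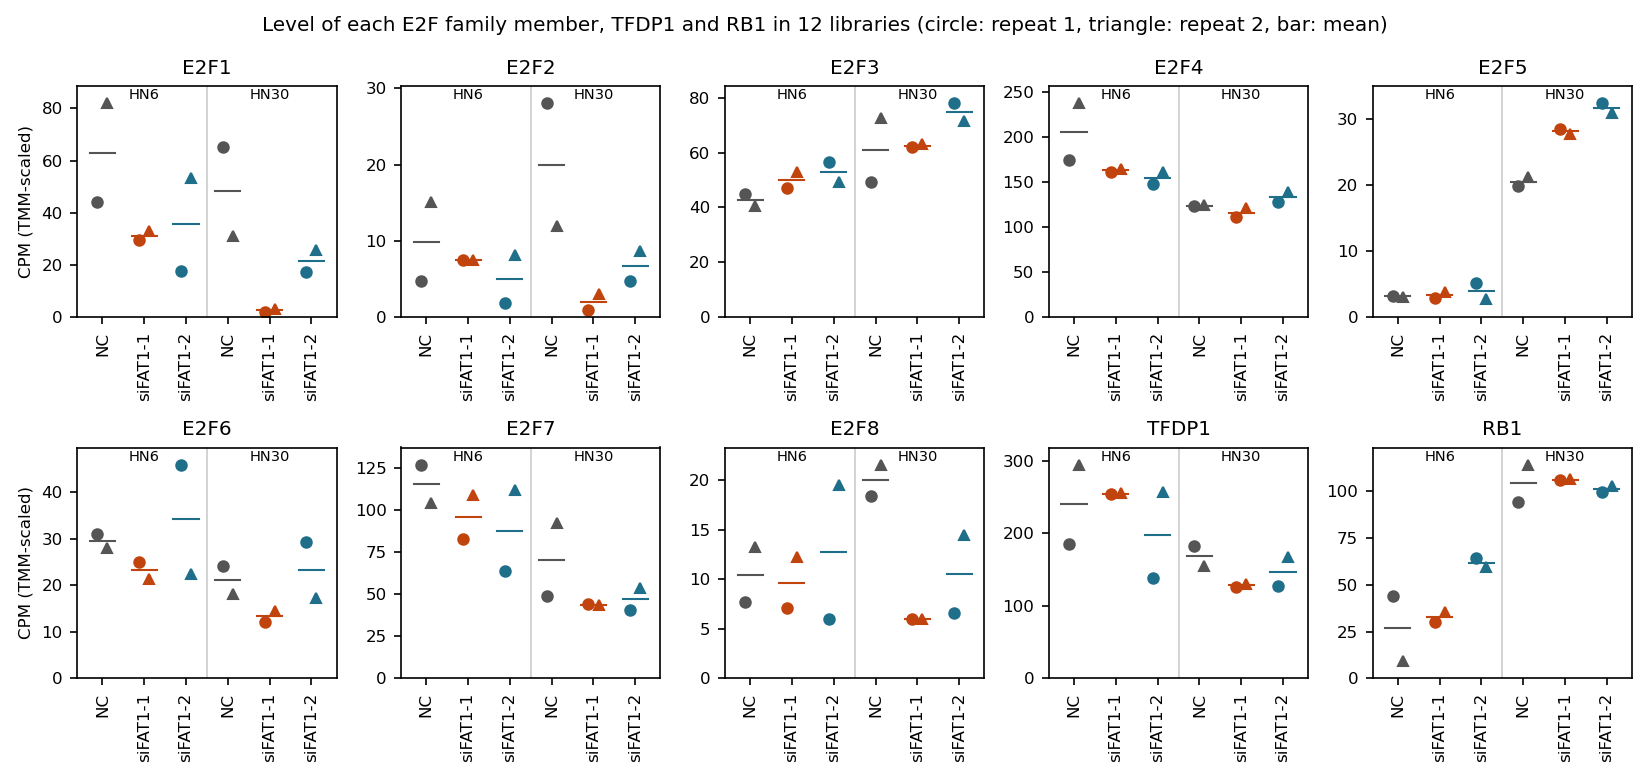
CPM of each member in the 12 libraries, with circles for repeat 1, triangles for repeat 2 and a bar at the mean of each condition, HN6 on the left and HN30 on the right of each panel. E2F1 in HN30 siFAT1-1 sits at 2.02 and 3.02 CPM against 65.3 and 31.1 in NC, and RB1 in HN6 NC repeat 2 sits at 9.44 against 30.03 to 64.1 in the other HN6 libraries.

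Among the activators, E2F1, a driver of S-phase entry that can also switch on apoptotic genes, reached 65.3 and 31.1 CPM in the NC libraries of HN30, 2.02 and 3.02 CPM under siFAT1-1 and 17.2 and 25.9 CPM under siFAT1-2. In HN6 the NC libraries held 43.9 and 82.1 CPM, those of siFAT1-1 29.4 and 32.9 CPM and those of siFAT1-2 17.6 and 53.4 CPM. Every HN30 KD library, and 3 of 4 in HN6, thus lay below NC, and the exception was HN6 siFAT1-2 repeat 2. In these bulk libraries fewer cells holding the transcript and less transcript per cell cannot be told apart.

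For siFAT1-1 within HN30 the log2 fold change of E2F1 was -4.25 ± 0.62 (SE, 95% confidence interval -5.63 to -2.87, 2 libraries against 2), with an adjusted p of 0.0213 in the edgeR fit, and 1.46% of all genes passed there. This comparison was added after the data had been seen. The direction was the same in every refit, but the call was lost without HN30 NC repeat 1 (adjusted p = 0.136), without HN30 siFAT1-1 repeat 1 (0.316) or repeat 2 (0.208), and without HN6 siFAT1-1 repeat 1 (0.0593) or repeat 2 (0.0559). The other fold changes of E2F1 were -1.16 ± 0.54 for siFAT1-2 in HN30, -1.02 ± 0.54 for siFAT1-1 in HN6 and -0.83 ± 0.54 for siFAT1-2 in HN6, none of which passed (adjusted p = 0.315, 0.760 and 0.381). Without HN6 NC repeat 2 the siFAT1-1 value in HN6 was -0.54 (adjusted p = 0.800). The HN30 siFAT1-1 libraries also had higher summed leukocyte markers (6 genes, 33.8 and 37.2 CPM against 16.0 and 21.9 in NC, with PTPRC at or near 0) and fibroblast markers (7 genes, 41.2 and 50.1 against 12.5 and 21.9 CPM, with COL3A1 and THY1 at or near 0). Endothelial markers (4 genes, 2.90 and 3.40 against 0.651 and 0.832 CPM) and squamous markers (10 genes, 4252 and 4532 against 2591 and 2888 CPM) were higher in the same libraries. Both siFAT1-1 libraries of HN6 were above both NC libraries in these sums too. Leukocyte markers were at 25.8 and 35.5 against 20.5 and 21.2 CPM and fibroblast markers at 88.4 and 112 against 74.2 and 74.3. Endothelial markers were at 6.63 and 7.87 against 1.16 and 4.68 CPM and squamous markers at 6029 and 6905 against 2808 and 4054. The part of all this in the E2F1 result was not tested.

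E2F2, the activator closest to E2F1 in its levels over the libraries, held 28.1 and 11.9 CPM in the NC libraries of HN30, 0.935 and 3.05 CPM under siFAT1-1 and 4.76 and 8.68 CPM under siFAT1-2. All 4 HN30 KD libraries lay below both NC libraries, as they did for E2F1. The log2 fold change for siFAT1-1 within HN30 was -3.31 ± 0.87 (adjusted p = 0.0911 with edgeR and 0.00115 with the DESeq2 Wald test). In HN6 the NC libraries held 4.75 and 15.02 CPM, and 3 of the 4 KD libraries, which ranged from 1.86 to 8.09 CPM, lay between them. Its difference within HN6 was -0.67 ± 0.76 over both siRNAs, and 0.36 without NC repeat 2, so that the sign there rested on that library.

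E2F3, the remaining activator, did not share this pattern. With NC it stood at 45.0 and 40.4 CPM in HN6, and all 4 KD libraries were above these, at 47.0 to 56.7 CPM. In HN30 the KD libraries, at 62.0 to 78.1 CPM, overlapped the NC libraries at 49.5 and 72.6. Over both lines the log2 fold change was 0.22 ± 0.15 (adjusted p = 0.514).

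Of the repressors, E2F4 in HN6 was at 174 and 238 CPM with NC and at 148 to 165 CPM in the 4 KD libraries, which all lay below NC. The HN6 difference was -0.38 ± 0.18 (adjusted p = 0.654), and it came to -0.16 without NC repeat 2 and to -0.08 once the GC trend of each library had been taken out. In HN30 the NC libraries were at 123 and 124 CPM, with siFAT1-1 below them (111 and 121) and siFAT1-2 above (127 and 139).

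E2F5, the other repressor that pairs with RB-family pocket proteins, was scarce in HN6, where it stayed between 2.65 and 5.07 CPM in all 6 libraries. HN30 held 19.8 and 21.2 CPM in NC, 28.5 and 27.8 CPM under siFAT1-1 and 32.4 and 31.0 CPM under siFAT1-2. All 4 HN30 KD libraries were therefore above both NC libraries, by a log2 fold change of 0.55 ± 0.29 that did not pass (adjusted p = 0.656). Over both lines the difference was 0.37 ± 0.20, and 0.07 once the GC trend had been taken out. Exons of opposite-strand genes cover 18.8% of the exon bases of E2F5 (GENCODE 44), and whether the counting used strand is not given in the sources used here.

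E2F6, which represses without binding pocket proteins, was the only member with an unadjusted P under 0.05 between the siRNAs, where 33.8% of all genes had one. The siFAT1-1 libraries held 25.0 and 21.4 CPM in HN6 and 12.1 and 14.6 in HN30, all below the NC libraries of 31.1 and 28.1 in HN6 and 24.0 and 18.0 in HN30. With siFAT1-2 the first repeats, at 45.9 CPM in HN6 and 29.2 in HN30, were above NC, and the second repeats, at 22.3 and 17.3, were below. The direct comparison of siFAT1-1 with siFAT1-2 over both lines gave -0.68 ± 0.25 (adjusted p = 0.0753, against 17.4% of all genes called). Without HN6 siFAT1-2 repeat 2 the difference was -0.86 and passed (adjusted p = 0.0241).

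The atypical repressors E2F7 and E2F8 act against E2F1 on shared target promoters. E2F7 in HN30 was at 48.9 and 92.1 CPM with NC and at 40.9 to 53.9 in KD, 3 of 4 libraries below NC. In HN6 it was at 127 and 105 CPM with NC and at 63.6 to 112 in KD. Its log2 fold change over both lines was -0.48 ± 0.20 (adjusted p = 0.297).

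For E2F8 the KD libraries lay apart from NC in HN30 and not in HN6. HN30 held 18.4 and 21.6 CPM in NC, 6.02 and 5.98 CPM under siFAT1-1 and 6.63 and 14.5 CPM under siFAT1-2, all 4 below NC. In HN6 the NC values of 7.69 and 13.3 CPM lay inside the KD range of 5.98 to 19.6. The log2 fold change for siFAT1-1 within HN30 was -1.74 ± 0.58 (adjusted p = 0.161 with edgeR and 0.0393 with the DESeq2 Wald test). The KD effect was lower in HN30 than in HN6 by 1.36 ± 0.73 without passing.

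TFDP1, the shared dimerization partner, was at 186 and 295 CPM with NC in HN6 and at 139 to 257 in KD, and at 182 and 156 with NC in HN30 and at 126 to 167 in KD. The difference over both lines was -0.19 ± 0.19 (adjusted p = 0.673).

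RB1 in HN30 was nearly level, at 94.2 and 114 CPM with NC and at 99.4 to 106.7 in the 4 KD libraries, a log2 fold change of -0.01 ± 0.47. HN6 held 44.2 and 9.44 CPM in NC, 30.03 and 35.5 CPM under siFAT1-1 and 64.1 and 59.7 CPM under siFAT1-2. The siFAT1-2 libraries were above both NC libraries and the siFAT1-1 libraries were between them. The difference for siFAT1-2 within HN6 was 1.21 ± 0.52 (adjusted p = 0.210). At adjusted p under 0.05 no member was called there, against 0.590% of all genes, and at the looser limits RB1 was, against 10.9%, but not after GC correction, and with a library left out RB1 was counted in 1 of the 12 refits, that without HN6 NC repeat 1. The RB1 difference was 0.48 without NC repeat 2, 0.56 after the GC trend was taken out and 2.70 without NC repeat 1, the last with an adjusted p of 0.000465 in a refit that called 2594 of 14063 genes, against 82 of 13887 with all libraries. In NC repeat 2, 456 genes (3.28% of those tested) lay as far below the other 5 HN6 libraries as RB1 did, against 3 to 142 genes in each of the other HN6 libraries.

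**Figure D3:**
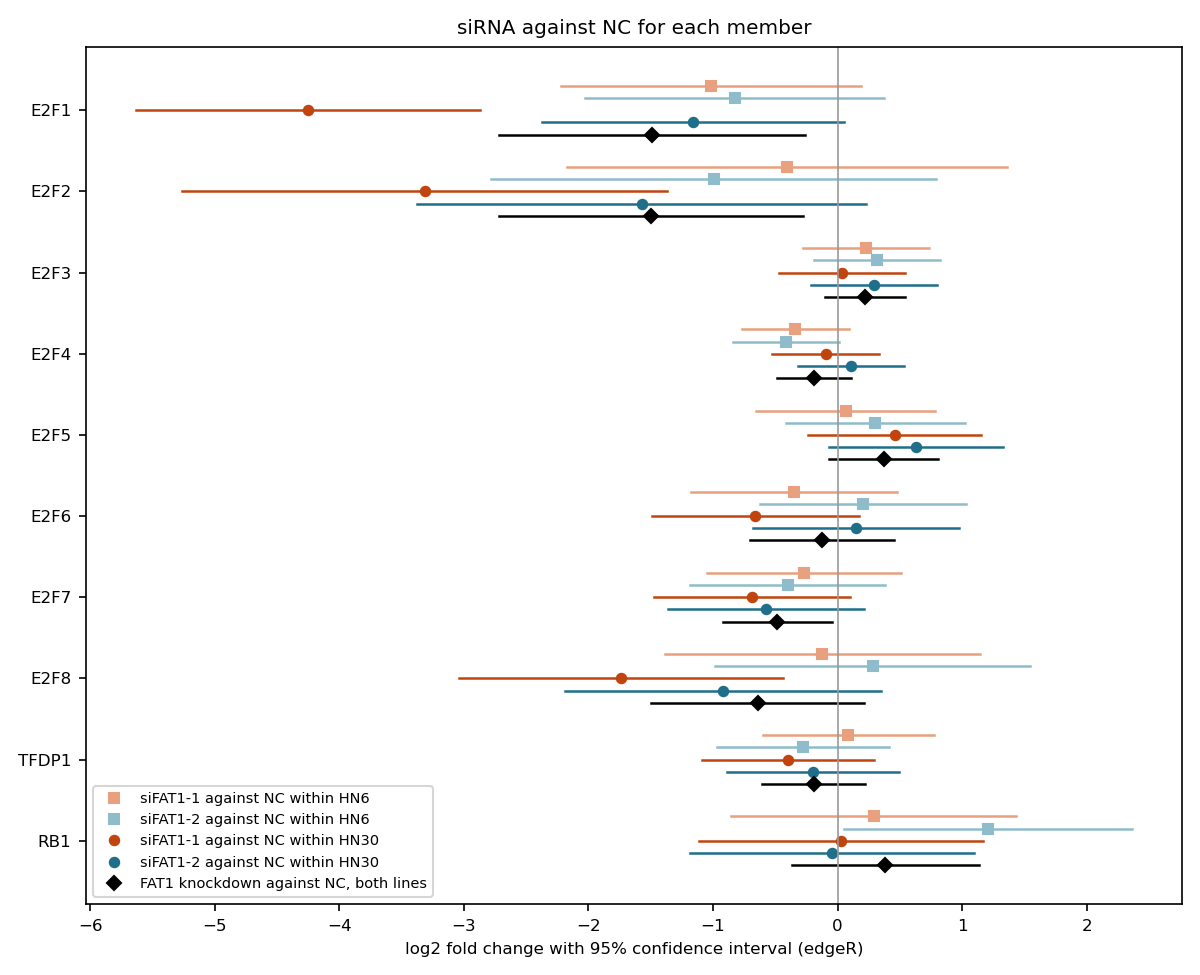
Log2 fold change against NC with its 95% confidence interval for each member, for each siRNA in each line and for both siRNAs over both lines (black diamonds). The interval of E2F1 for siFAT1-1 in HN30 (-5.63 to -2.87) lies below all other E2F1 intervals drawn, and the intervals of E2F3, E2F4 and E2F5 all cross 0.

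By separation of libraries, 4 members (E2F1, E2F2, E2F5 and E2F8) had all HN30 KD libraries on 1 side of both NC libraries, where 20.8% of all genes did. In HN6 this held for E2F3 and E2F4, against 16.1% of all genes. No member was separated in the same direction in both lines (5.44% of all genes). With siFAT1-1 alone, E2F1, E2F4 and E2F6 were below NC in both repeats of both lines, against 20.9% of genes separated in either direction, and with siFAT1-2 alone no member was separated (22.5%). After adjustment, siFAT1-1 over both lines called 3.25% of all genes and siFAT1-2 11.8%, and neither called a member with edgeR, while the DESeq2 Wald test called E2F1 for siFAT1-1 (adjusted p = 0.00198), among 1216 of 13079 genes. At the looser limits siFAT1-1 counted E2F1 and E2F2 (5.58% of all genes; E2F1 alone with the repeat number as a block or without HN6 NC repeat 2, HN6 siFAT1-2 repeat 2, HN30 NC repeat 1 or either siFAT1-1 library of HN30) and siFAT1-2 counted none (9.06%). Within HN30 the same limits counted E2F1, E2F2 and E2F8 for siFAT1-1 (9.22% of all genes) and no member for siFAT1-2 (8.48%). With the repeat number as a block the siFAT1-2 count within HN30 was 2 (E2F1 and E2F2), and without HN6 siFAT1-2 repeat 1, HN6 siFAT1-2 repeat 2 or HN30 NC repeat 2 it was 1 (E2F1). E2F1 for siFAT1-1 over both lines was at -2.34 ± 0.67 (adjusted p = 0.0793 with edgeR).

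Within a line, both siRNAs together called no gene in HN6, where 7.83% of genes had an unadjusted P under 0.05 and no member did (the DESeq2 Wald test called 106 genes there and no member), and 0.0144% of genes in HN30, no member among them. At P under 0.05 with an absolute log2 fold change over 1, E2F1 (95% confidence interval -3.74 to -0.26), E2F2 (-3.82 to -0.57) and E2F8 (-2.35 to -0.19) were counted in HN30, against 4.34% of all genes, and no member in HN6, against 3.35%. Without HN30 NC repeat 1 the HN30 count was 1 (E2F7) and without HN30 siFAT1-1 repeat 2 it was 1 (E2F2). Whether the lines differ was tested directly. The effect of siFAT1-1 on E2F1 was lower in HN30 than in HN6 (log2 difference -3.23 ± 0.79), as was that on E2F2 (-2.91 ± 1.15), both among the 3.90% of genes with an unadjusted P under 0.05. Neither passed after adjustment, and no gene did with edgeR, while the DESeq2 Wald test called 2 genes and no member.

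The activators and repressors were also set against each other, as the mean log2 CPM of E2F1 to E2F3 minus that of E2F4 to E2F8 in each library. In HN30 this difference was 0.36 and -0.39 with NC, -2.33 and -1.64 with siFAT1-1 and -0.77 and -0.50 with siFAT1-2. The 4 KD libraries were below both NC libraries. In HN6 it was -0.41 and 0.25 with NC, -0.09 and -0.26 with siFAT1-1 and -1.10 and -0.07 with siFAT1-2, with only siFAT1-2 repeat 1 outside the NC range. The mean shift from NC to KD was -1.30 in HN30 (KD -1.31 ± 0.83, SD, n = 4, and NC -0.02 ± 0.53, n = 2) and -0.30 in HN6 (KD -0.38 ± 0.49, NC -0.08 ± 0.46). Its size changed with the measure. From summed CPM per kb, as a log2 ratio, it was -0.74 in HN30 and -0.19 in HN6. With E2F4, E2F5 and E2F6 as the only repressors it was -1.72 and -0.33. Of the -1.30 in HN30, the activator mean moved by -1.63 and the repressor mean by -0.33, so that both went down and the activators, through E2F1 and E2F2 and not E2F3, went down further. No test was made of this difference.

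**Figure D4:**
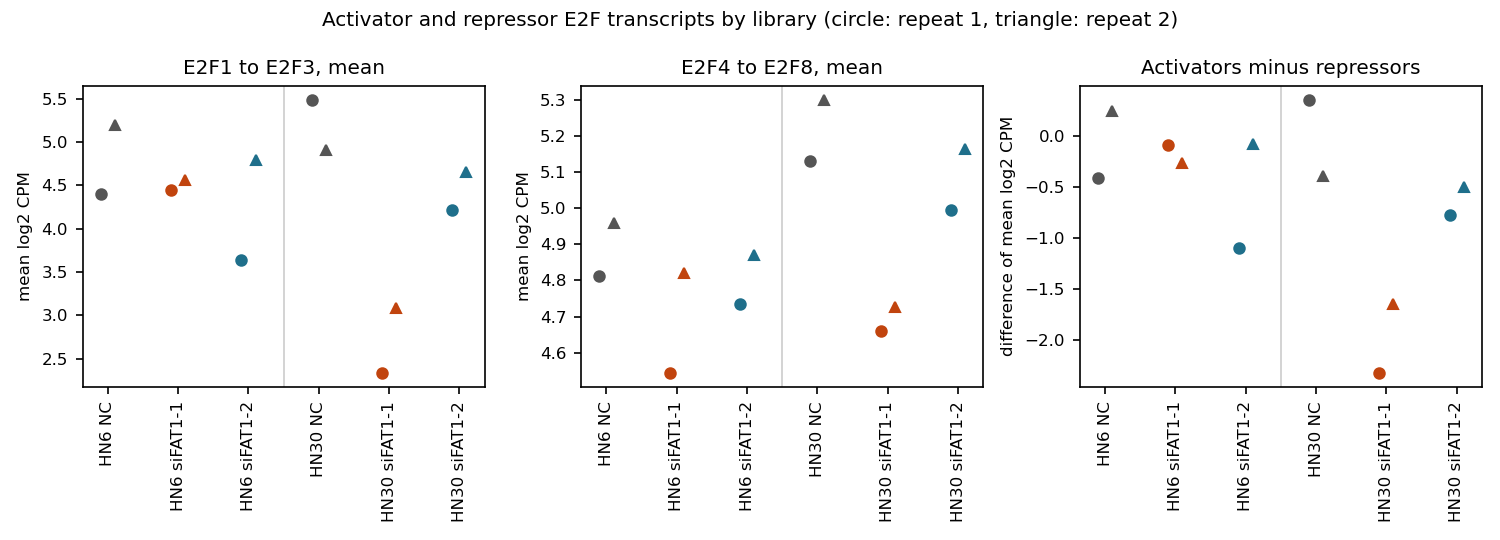
Mean log2 CPM of E2F1 to E2F3 (left), of E2F4 to E2F8 (middle) and their difference (right) in each of the 12 libraries, with circles for repeat 1 and triangles for repeat 2. The HN30 siFAT1-1 libraries have the lowest activator means (2.33 and 3.08) and the lowest differences (-2.33 and -1.64), and the axes of the panels differ.

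HN30 and HN6 differed in 8 of the 10 members, in a comparison in which 56.9% of all genes passed. E2F5, RB1 and E2F3 were higher in HN30 (28.2% of all genes were), and E2F7, TFDP1, E2F6, E2F4 and E2F1 were lower (28.8%). E2F5 was higher by 2.95 ± 0.19 log2 units (adjusted p = 1.6e-07) and RB1 by 1.46 ± 0.32 (0.00208), and for both, as for E2F4, all 6 HN30 libraries lay outside the range of the 6 HN6 libraries (26.0% of all genes). E2F4 was lower by a log2 difference of -0.48 ± 0.12 (0.00477). The RB1 difference was 1.22 without HN6 NC repeat 2 and also passed. E2F3 was higher by 0.45 ± 0.12, and E2F7 (-0.91 ± 0.19), TFDP1 (-0.64 ± 0.18), E2F6 (-0.61 ± 0.20) and E2F1 (-1.46 ± 0.54) were lower. In the NC libraries alone, where 653 of 12163 genes passed, E2F5 was the only member that did, at 2.72. RB1 (1.97), E2F3 (0.53), E2F4 (-0.72), E2F7 (-0.70), TFDP1 (-0.50), E2F6 (-0.48) and E2F1 (-0.37) kept their direction there without passing. The E2F1 difference no longer passed with limma-voom (-1.14, adjusted p = 0.0607) or, in the edgeR fit, with the repeat number as a block (-1.39, adjusted p = 0.0542). Nor did it pass without HN6 siFAT1-1 repeat 1, HN6 siFAT1-2 repeat 2, HN30 NC repeat 2, HN30 siFAT1-2 repeat 1 or either HN30 siFAT1-1 library (adjusted p = 0.0558 to 0.105). E2F6 did not pass without the first repeat of siFAT1-1 in either line or of siFAT1-2 in HN6. For E2F2 (-0.08 ± 0.59) and E2F8 (-0.01 ± 0.36) the estimate was small and its sign changed with the setting.

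The other genes of the pathway were read from lists that were chosen with earlier results of these data known. Among the pocket proteins and dimerization partners beyond the members, none of 3 passed over both lines. RBL1, which encodes the pocket protein p107, was at 31.0 and 39.1 CPM with NC in HN30 and at 11.9 to 24.3 in the 4 KD libraries, all below NC, while in HN6 the NC values of 23.9 and 13.5 CPM overlapped the KD range of 14.7 to 39.0. RBL2, which encodes p130, was at 42.4 and 29.4 CPM with NC in HN6 and at 47.8 to 61.8 in KD, all above NC, and in HN30 the NC values of 47.6 and 54.0 CPM overlapped 48.6 to 62.3 in KD. Opposite-strand genes cover 16.4% of its exon bases. TFDP2 in HN30 was at 58.1 and 51.0 CPM with NC and at 31.2 to 38.3 in KD, all below NC, and in HN6 the NC values of 25.8 and 32.9 CPM overlapped 21.2 to 29.9 in KD. None of the 5 genes of the MuvB core, the scaffold that joins E2F4 and p130 in resting cells, passed in either direction, with a median of -0.10.

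Of the cyclins and kinases that phosphorylate RB, 10 of 11 were measured well enough to test, 9 were lower in KD over both lines and 1 passed. CCNE1, the cyclin E gene and a known E2F target, fell by 2.05 ± 0.34 on the log2 scale (adjusted p = 0.0197), from 20.2, 21.2, 27.7 and 11.8 CPM in the 4 NC libraries to between 2.38 and 8.25 in the 8 KD libraries. The call was lost without repeat 1 of NC in HN6 or in HN30 (adjusted p up to 0.153). CDK4, a partner of the D cyclins, was at a log2 fold change of -0.86 ± 0.33 over both lines (adjusted p = 0.257) and fell by 1.40 with siFAT1-1 (adjusted p = 0.0289), a call that was lost when HN6 siFAT1-1 repeat 2 or any single NC or siFAT1-1 library of HN30 was left out (adjusted p up to 0.136). CCND1, the cyclin D1 gene, fell by 1.40 with siFAT1-2 (adjusted p = 0.00683) and was higher with siFAT1-1 than with siFAT1-2 by 1.27 ± 0.25 (adjusted p = 0.00632), and both calls were made whichever library was left out. CCNA2 was at -0.66 ± 0.47 over both lines.

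None of 7 CDK inhibitor genes passed over both lines with edgeR, 4 being higher and 3 lower in KD, while CDKN2B, higher in KD, passed with the DESeq2 Wald test. CDKN2B, which encodes the CDK4 and CDK6 inhibitor p15, rose by 1.81 ± 0.35 with siFAT1-2 (adjusted p = 0.0090), from 5.66 to 20.5 CPM in the 4 NC libraries to 27.3 to 62.4 CPM, a call made whichever library was left out. CDKN2D (-0.46) and CDKN2C (-0.48) were lower over both lines without passing, and CDKN2D fell by 0.83 with siFAT1-2 (adjusted p = 0.0484), a call lost with the repeat number as a block (adjusted p = 0.0535) and in all 12 refits with a library left out (up to 0.112). Of 9 genes of the E2F6 complex none passed in KD over both lines, and the 3 with the smallest P were YAF2 (0.62 ± 0.25), L3MBTL2 (-0.29 ± 0.17) and MGA (0.58 ± 0.34), which came to 0.43, -0.18 and 0.25 without HN6 NC repeat 2. With siFAT1-2 YAF2 alone passed, at 0.83 (adjusted p = 0.0497 with edgeR, against 11.8% of all genes). That call was lost with GC correction and in 11 of the 12 refits with a library left out. Between the siRNAs 1 of the 9 passed, lower with siFAT1-1, against 17.4% of all genes.

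The 36 G1/S targets of E2F encode mostly the machinery of DNA replication. Over both lines 35 of the 36 were lower in KD and TIPIN was higher, with a median log2 fold change of -0.67 against 0.02 for all genes. None passed after adjustment with edgeR, while 16 had an unadjusted P under 0.05, all of them lower, against 14.5% of all genes in either direction. Of the targets refitted here, UHRF1, MCM5, MCM7 and MYBL2 passed with the DESeq2 Wald test and FEN1 and POLA2 did not. That test called 640 of 13592 genes. The 3 with the smallest P were UHRF1, MCM5 and MCM7. MCM5, a subunit of the replicative helicase, was at 225, 338, 220 and 144 CPM with NC and at 38.6 to 204 in KD, below NC of its line in all 8 KD libraries, with a log2 fold change of -1.29 ± 0.32 (adjusted p = 0.100). UHRF1, needed to copy DNA methylation, was at -1.68 ± 0.42 (adjusted p = 0.0980), and MCM7 at -0.94 ± 0.25 (adjusted p = 0.117).

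By line and siRNA, the median of the 36 targets was -1.72 for siFAT1-1 in HN30, -0.71 for siFAT1-2 in HN30, -0.49 for siFAT1-2 in HN6 and -0.22 for siFAT1-1 in HN6. Under siFAT1-1 in HN30, the condition with the lowest E2F1 and E2F2, all 36 were lower. FEN1 (-2.16) and POLA2 (-2.08), 2 of the 36, passed after adjustment (adjusted p = 0.0383 and 0.0428 with edgeR), against 1.46% of all genes. Both calls were lost when any single siFAT1-1 library of HN6 or NC or siFAT1-1 library of HN30 was left out. That of POLA2 was also lost with limma-voom or without either siFAT1-2 library of HN30. Under siFAT1-2 over both lines 3 of the 36 passed after adjustment, against 11.8% of all genes. MYBL2 fell by 2.19, UHRF1 by 1.93 and MCM5 by 1.38. The MYBL2 call was made whichever library was left out. That of UHRF1 was lost with GC correction. It was also lost without HN6 NC repeat 2, HN6 siFAT1-1 repeat 1, HN30 NC repeat 1 or either siFAT1-2 library of HN30. That of MCM5 was lost with GC correction, with or without the repeat number as a block. With a library left out it was lost in 8 of 12 refits, and kept without HN6 NC repeat 1, HN6 siFAT1-2 repeat 2, HN30 siFAT1-1 repeat 1 or HN30 siFAT1-2 repeat 2. FEN1, POLA2 and MYBL2 were named after their values were seen.

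**Figure D5:**
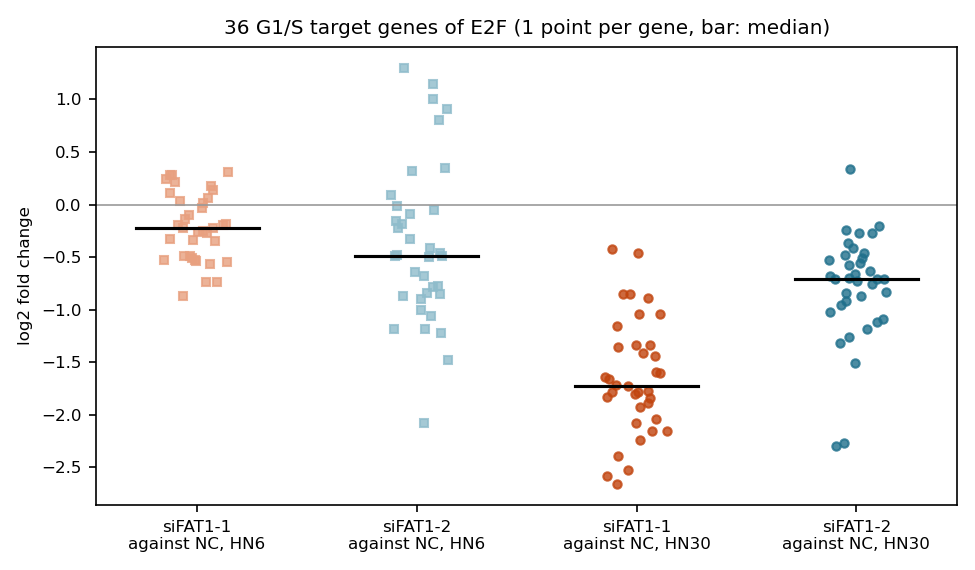
Log2 fold change against NC of 36 E2F target genes of the G1/S transition for each siRNA in each line, with 1 point per gene and a bar at the median. All 36 points lie below 0 for siFAT1-1 in HN30 (median -1.72), and 25 of 36 do for siFAT1-1 in HN6 (median -0.22).

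Among the apoptotic targets of E2F1, TP73, which encodes a relative of p53, was lower in all 8 KD libraries. Its log2 fold change was -1.08 ± 0.23 (adjusted p = 0.0615 with edgeR), and it passed with the DESeq2 Wald test. Over both lines each siRNA alone passed with edgeR, at -1.26 for siFAT1-1 (adjusted p = 0.0213, against 3.25% of all genes) and -0.92 for siFAT1-2 (0.0369, against 11.8%). With a library left out these calls were lost in 3 and 9 of the 12 refits. The siFAT1-2 call was also lost with the repeat number as a block or with GC correction. For siFAT1-1 in HN30 TP73 fell by 1.80 (adjusted p = 0.0306 with edgeR). That call was lost when any single siFAT1-1 library of either line or HN30 NC repeat 1 was left out. APAF1 (0.38 ± 0.24) and PMAIP1 (0.78 ± 0.33), which encode a caspase activator and a BH3-only protein, were higher over both lines without passing, and came to 0.23 and 0.65 without HN6 NC repeat 2.

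Likeness over the 12 libraries was measured as Pearson's r of log2 CPM after subtraction of the line means, as a description. E2F1 was most alike to TIMELESS (r = 0.991), POLA2 (0.979), MTFR2 (0.971), DNAJC9 (0.971) and ATAD3A (0.971). TIMELESS and POLA2, of the replication fork and of the primase complex, kept the highest values without HN6 NC repeat 2 (0.993 and 0.980). E2F7 was most alike to PRELID2 (0.868), SH3RF2 (0.868), CDC25C (0.861), CDK1 (0.855) and SHCBP1 (0.854), and none of these stayed among its 5 most alike without HN6 NC repeat 2 (r = 0.853 to 0.890 there). RB1 was most alike to USP9X (0.994), ZNF518B (0.994), MIB1 (0.993), PKN2 (0.989) and ZMYM4 (0.989), all in the 2 lowest of the 5 groups by exon GC content. ZNF518B was at 0 CPM in HN30, so that its r rests on the 6 HN6 libraries. Without HN6 NC repeat 2 USP9X stayed the most alike, at 0.971, ZNF518B was at 0.965 and ZMYM4 at 0.937.

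Among the members, E2F1 and E2F2 were the most alike pair (r = 0.920), followed by E2F2 with TFDP1 (0.806) and with E2F8 (0.799) and E2F1 with E2F8 (0.787). E2F3 was at -0.25 with E2F1 and -0.41 with E2F2. RB1 and E2F4 ran opposite to each other at -0.85 over 12 libraries but at -0.30 without HN6 NC repeat 2, which held the lowest RB1 and the highest E2F4. The points share their libraries and the GC trend of each library.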

How the data were processed

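Per the labels and the study's methods, polyA libraries were sequenced as paired-end reads, poly-N reads, duplicates and low-quality reads were removed and the rest was mapped to hg38. The submitters' processing notes name HISAT2 and featureCounts, with versions not given in the sources used here. The authors deposited 1 table of raw gene counts (19225 entries by 12 libraries, with 19223 distinct symbols, of which 27 are dates), and strandedness of counting is not given. Groups came from the cell line, knockdown and time in the labels. The labels write the knockdowns as FAT1-sh1 and FAT1-sh2, which were read here as siFAT1-1 and siFAT1-2 of the study's methods. Genes with at least 10 counts in enough libraries (filterByExpr over siRNA) were kept, which left 13887. Counts were scaled by TMM (factors 0.897 to 1.06) and tested with edgeR 4.0.16 quasi-likelihood fits in R 4.3.3. Comparisons over both lines had cell line and either KD (both siRNAs joined) or siRNA as terms. Within a line the groups were KD and NC, or the conditions for single siRNAs. P values were adjusted by Benjamini-Hochberg over all genes tested, with a threshold of 0.05. SE is the log2 fold change divided by the root of F. CPM are TMM-scaled, log2 CPM use a prior count of 2, and lengths are GENCODE 44 exon unions. Libraries of a condition were biological repeats labelled time1 and time2. In fits with each condition as a group, p-values measure the spread between these repeats. In fits that join both siRNAs as KD, the spread also holds the difference between the siRNAs. In fits over both lines it also holds any difference of the effect between the lines. Total counts limit precision to counting error plus that spread.

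Alternatives were DESeq2 size factors, no filter, limma-voom 3.58.1, the DESeq2 1.42.0 Wald test, no line term, NC libraries alone, the repeat as a block and each library left out. Exon GC content was known for 18278 symbols, and a GC correction was added after seeing the data, as were comparisons of single siRNAs within a line. The labels give the repeat number as time1 or time2, and whether this pairs the libraries of a line is not stated. The block treats same-numbered libraries of a line as paired. Deviations of same-numbered libraries correlated at 0.08 to 0.24 in HN6 and -0.03 to 0.40 in HN30. The members and lists were chosen with earlier results of these data known. The genes named beyond the members are FAT1, those of each list past the threshold over both lines plus the 3 with the next smallest P, and the 5 most like E2F1, E2F7 and RB1, and further genes named from the lists in single comparisons were chosen after their values were seen. The genes of the lists named with values were refitted under every alternative, as were the looser limits for single siRNAs within a line, both added after seeing the data. The fits were tested on simulated data. Results for some genes of the lists are not reported here.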

Additional observations from a re-analysis of the deposited data

Results flagged for a closer look

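E2F4 is listed here: all libraries of a siRNA lay on opposite sides of NC between lines or between siRNAs, by small amounts. The siFAT1-2 effect was higher in HN30 than in HN6 by 0.52 ± 0.27 (adjusted p = 0.784 with edgeR), and the siRNAs differed by -0.07 ± 0.15 over both lines (adjusted p = 0.769 with edgeR), neither of which passed. The difference between the siRNAs within HN30 alone was not tested. With siFAT1-2 it was below both NC libraries in HN6 (log2 fold change -0.41) and above both in HN30 (0.11), and within HN30 siFAT1-1 was below both (-0.0947). Conditions of 2 libraries were not tested for outliers.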

How the results depend on the processing

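Of 46 values of single members, 43 kept their direction in every refit. The sign of the line difference of E2F2 was positive with limma-voom (0.19), the replicate block (0.0457), NC libraries alone (1.03), GC correction (0.10) and GC correction with the block (0.22), and between -0.42 and 0.31 when a library was left out. That of E2F8 was 0.16, 0.0731, 0.94, 0.0545 and 0.12 under the same settings and -0.24 to 0.30, and E2F2 within HN6 ran from -1.28 to 0.36 (positive without HN6 NC repeat 2). Member counts past the adjusted threshold changed as follows: siFAT1-1 over both lines 1 (E2F1) and siFAT1-1 against siFAT1-2 1 (E2F6) with the DESeq2 Wald test (1216 of 13079 and 3593 of 13887 genes called), the latter also 1 (E2F4) with GC correction and block (2684 genes); siFAT1-1 within HN30 3 (E2F1, E2F2 and E2F8) with the Wald test (1165 genes) and with GC correction and block (549, against 203 with edgeR); HN30 against HN6 1 (E2F5) in NC libraries alone. Leaving out 1 library gave counts of 0 to 1 for siFAT1-1 against siFAT1-2 (E2F6 without HN6 siFAT1-2 repeat 2) and for siFAT1-1 within HN30. Without HN6 NC repeat 1 RB1 was called in KD and in siFAT1-1 within HN6 and in both siRNA differences between lines (0 to 1 each), and RB1 and E2F4 in siFAT1-2 within HN6 (0 to 2). That refit called 305, 815, 250, 1135 and 2594 of 14063 genes in these comparisons, in this order with siFAT1-1 before siFAT1-2 for the differences, against 0, 15, 0, 0 and 82 with all libraries. At P under 0.05 with an absolute log2 fold change over 1, KD over both lines counted 1 member without the line term or with GC correction and 0 with GC correction and block (0 to 2 when a library was left out), siFAT1-1 1 with the block, without the line term or with GC correction and block (1 to 3), siFAT1-2 1 without a filter or with the Wald test (0 to 1), KD within HN6 1 with limma-voom (0 to 1), KD within HN30 1 to 3 when a library was left out, siFAT1-1 within HN6 0 to 2, siFAT1-2 within HN6 0 with GC correction, with or without the block (0 to 2), siFAT1-1 within HN30 2 to 4, and siFAT1-2 within HN30 1 without a filter, 2 with the Wald test or the block and 3 with GC correction and block (0 to 1). The cause of these changes was not tested. Of the members' results refitted here, the replicate block changed the call of the E2F1 line difference and the counts at the looser limits for siFAT1-1 over both lines and siFAT1-2 within HN30, and no other. Without the line term the edgeR calls over both lines were lost for FAT1 and for every list gene reported with one. With 1 library left out, the lone library of a condition is assumed to vary like the others.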
